A study of Mus musculus with 9 samples.

Results

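The Prame-like genes of the mouse were followed in E14 embryonic stem cells (ESCs; 129/Ola background), grown in serum and LIF without feeder cells, after knockdown of Dppa2 or Dppa4. The genes named for this purpose were Pramel4, Pramel5, Pramel6, Pramel7, Pramef6, Pramef8, Pramef12, Pramef17, Pramef25, and Gm12794. Of these 10 names, 9 were found among the 25965 genes of the deposited expression table, and Pramef25 was not used as a name there. The gene annotated as Pramef25 stands in the table as Gm13109 and is described with the rest of the family. The family has 42 rows in the table by RefSeq name or place, so that 33 rows stand beside the 9 members. Cells received control siRNA, Dppa2 siRNA, or Dppa4 siRNA at 0 and 48 h and were collected at 96 h (4 d), and each of the 3 treatments is represented by 3 libraries of polyadenylated RNA, A, B, and C. All 9 libraries come from the same cell line, and an siRNA lowers its target in part and for a time. According to the paper, the knockdowns were made in serum ESCs that carry the MERVL::tdTomato and Zscan4c::eGFP reporters. Values are the deposited normalized log2 expression, the log2 of the reads of a gene scaled for library size, with the distributions of the libraries matched.

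PRAME (preferentially expressed antigen of melanoma) proteins are built of leucine-rich repeats, and in rodents the family has multiplied into clusters of near-identical genes that are used in the germline and the early embryo. Pramel7 is found in the naive pluripotent cells of the blastocyst, where it joins the Cullin 2 ubiquitin ligase and promotes the removal of UHRF1, the factor that brings the maintenance methyltransferase DNMT1 to replicated DNA. Pramel6 and Pramel7 are also known to sustain ESC self-renewal downstream from LIF and STAT3. Other copies belong to the transcripts that rise when the zygotic genome is activated at the 2-cell stage and that a small share of cultured ESCs, the 2-cell-like cells, express again. Dppa2 and Dppa4 are small DNA-binding proteins of pluripotent cells that form a complex and act upstream of this program. The comparison therefore sets the 2-cell type copies beside Pramel6 and Pramel7 of the naive state.

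How alike the copies are decides what short reads can tell apart, and 60 coding bases of Gm12794 (positions 1021 to 1080 of its 1449 coding bases) are shown for that reason. Below, the same aligned stretch is written for 8 relatives, 5′ to 3′ on the coding strand in GRCm38, and capitals mark every base that differs from Gm12794.
Gm12794: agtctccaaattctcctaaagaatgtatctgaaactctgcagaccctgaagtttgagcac
Gm12800: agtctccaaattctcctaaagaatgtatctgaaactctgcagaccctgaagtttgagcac
B020004J07Rik: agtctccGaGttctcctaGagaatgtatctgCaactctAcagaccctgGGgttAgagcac
BC080695: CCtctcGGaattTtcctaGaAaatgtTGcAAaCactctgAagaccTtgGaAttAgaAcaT
Pramef6: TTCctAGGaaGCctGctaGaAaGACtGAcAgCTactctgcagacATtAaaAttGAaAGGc
Pramef8: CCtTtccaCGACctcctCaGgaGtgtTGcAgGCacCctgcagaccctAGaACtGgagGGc
Pramef12: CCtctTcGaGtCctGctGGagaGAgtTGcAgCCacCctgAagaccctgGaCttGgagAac
Pramel6: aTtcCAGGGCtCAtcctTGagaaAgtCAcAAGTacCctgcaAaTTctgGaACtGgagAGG
Pramel7: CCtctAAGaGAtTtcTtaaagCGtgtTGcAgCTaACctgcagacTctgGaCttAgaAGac

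The stretch of Gm12794 lies in a coding exon at chr4:101942752-101942811 on the plus strand, and that of Gm12800 at chr4:101911477-101911536 on the same strand. The others lie at chr4:101835734-101835793 (B020004J07Rik, minus), chr4:143572795-143572854 (BC080695, plus), chr4:143895704-143895763 (Pramef6, minus), chr4:143418986-143419045 (Pramef8, plus), chr4:144392910-144392969 (Pramef12, minus), chr2:87510352-87510411 (Pramel6, plus), and chr2:87489874-87489933 (Pramel7, minus). Gm12800 did not differ from Gm12794 at any of the 60 bases, so a read of 50 bases from here fits both. B020004J07Rik differed at 8 bases, BC080695 at 19, Pramef12 at 22, Pramef8 at 23, Pramel7 at 24, Pramef6 at 28, and Pramel6 at 29.

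A second stretch of 60 coding bases, near the middle of Pramel7, shows the nearest relatives of that gene, with capitals at every base that differs from Pramel7.
Pramel7: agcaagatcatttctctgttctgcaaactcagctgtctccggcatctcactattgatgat
Pramef17: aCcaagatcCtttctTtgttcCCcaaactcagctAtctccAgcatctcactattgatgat
Gm13128: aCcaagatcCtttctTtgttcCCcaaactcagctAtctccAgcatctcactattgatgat
Pramel6: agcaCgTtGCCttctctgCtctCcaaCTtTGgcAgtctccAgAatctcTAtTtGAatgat

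These lie at chr2:87490862-87490921 (Pramel7, minus), chr4:143992972-143993031 (Pramef17, minus), chr4:144331587-144331646 (Gm13128, plus), and chr2:87509671-87509730 (Pramel6, plus). Pramef17 and Gm13128 differed from Pramel7 at 7 bases each and shared all 7. Pramel6, which is the neighbor of Pramel7 on the chromosome, differed at 19.

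Over whole coding sequences the family fell into sets of close copies. Gm12794 and Gm12800 were identical at 96.6% of aligned bases, BC080695 and Gm13119 at 96.7%, and Pramef6 and Gm13078 at 95.7%. Pramef17 and Gm13128 were identical at 99.3%, and their next relative was Pramel7, at 79.9% for Pramef17 and 80.1% for Gm13128. Pramel6 and Pramel7, although adjacent, were identical at 56.2%, about the level of Pramel6 and Gm12794 (59.4%) or Pramef8 and Pramef12 (62.1%). The nearest relative of Pramel6 was Pramef8, at 63.7%.

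**Figure D1:**
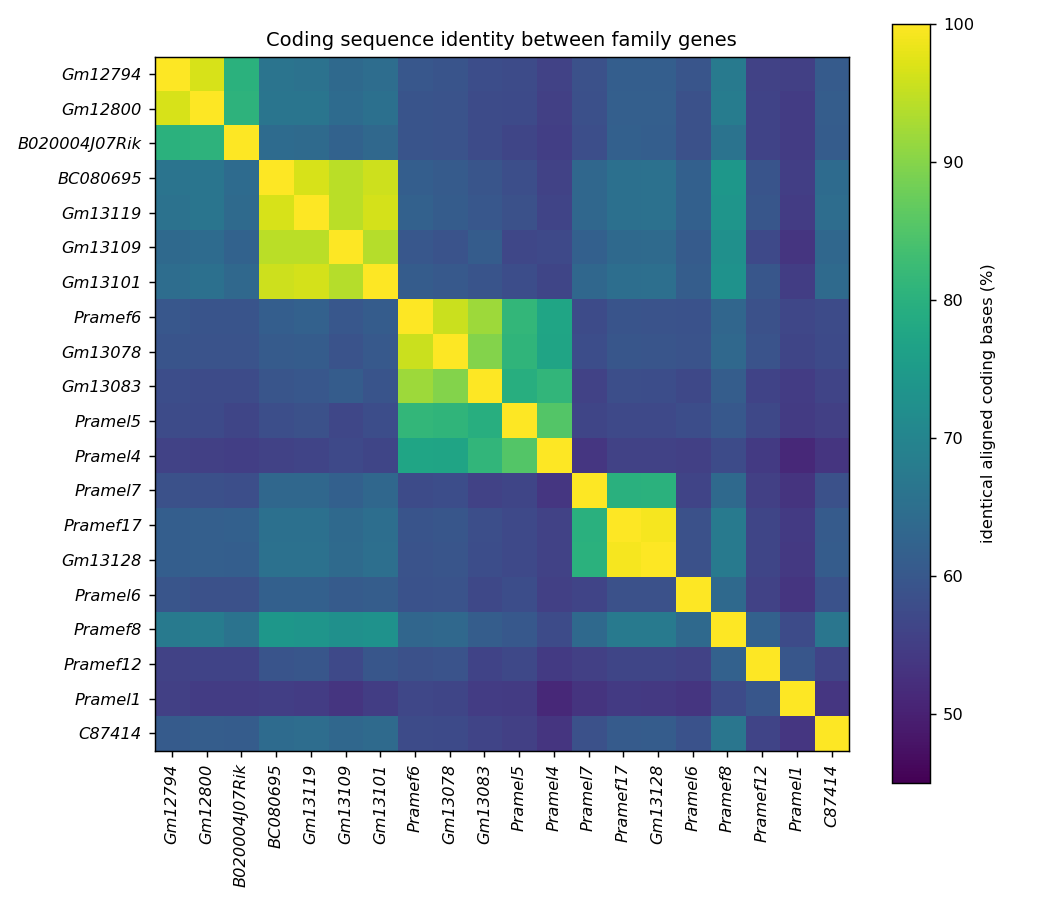
Heat map of the percentage of identical aligned coding bases between pairs of family genes, with the color scale in percent and the same genes on both axes. Gm12794 with Gm12800, BC080695 with Gm13119, Pramef6 with Gm13078, and Pramef17 with Gm13128 form blocks above 95%, whereas Pramel6, Pramef8, and Pramef12 have no relative at that level.

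The same closeness was measured on transcripts, by looking up every 5th stretch of 50 bases of a gene in all other annotated genes. None of the stretches of Pramel6, Pramef8, or Pramef12 was found elsewhere, and 0.6% of those of Pramel7 were. By this measure of exact matches, the values of these 4 members rest on sequence of their own, or nearly so. Stretches with mismatches and copies outside annotated genes were not looked up. For Gm12794, 47.0% of the stretches were found elsewhere, most of them in Gm12800. The shares were 35.4% for Pramef6, 26.7% for Pramel5, 73.3% for Pramef17, and 92.8% for Pramel4, and the values of these copies are uncertain, because the counting may have divided or dropped their reads.

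Before the members, the knockdowns themselves were examined. Dppa2 mRNA had log2 values of 7.26, 7.16, and 6.94 in control libraries and of 3.36, 3.86, and 3.68 with Dppa2 siRNA, a reduction of 91.1% (limma, adjusted p = 2.13e-05). Dppa4 mRNA fell with Dppa4 siRNA from 7.02, 7.11, and 7.06 to 6.16, 6.14, and 6.09, a reduction of 47.6% (limma, adjusted p = 0.000281). Neither siRNA changed the mRNA of the other gene past the threshold. At the protein level, the paper reports that Dppa4 siRNA also reduced Dppa2, and that Dppa2 siRNA reduced Dppa4 to a lesser extent. Depth differed between libraries, and a log2 value of 0 stood for 27 to 58 reads in control libraries, 19 to 28 after Dppa2 knockdown, and 23 to 31 after Dppa4 knockdown. The 8 ESC markers examined were present in every library and none passed the test in either knockdown. The labels do not say whether libraries A, B, and C came from separate cultures. In its panel on repeat elements after siRNA, the paper calls the replicates biological and says no more. The p-values therefore measure the spread between these libraries, which may be technical.

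Levels per length in control cells were compared first. Values were placed on a scale of log2 expression per kilobase of annotated exon, on which Pramef12 was highest at 3.48 ± 0.22 (SD, n = 3), followed by Gm12794 at 2.74 ± 0.46 and Pramef8 at 2.54 ± 0.15. The libraries of Pramef12 (3.23 to 3.66) and Gm12794 (2.47 to 3.28) overlapped, as did those of Gm12794 and Pramef8 (2.38 to 2.64). Pramel7 (0.63 ± 0.36) and Pramel6 (0.58 ± 0.18) came next and overlapped with each other, and all their libraries lay below those of Pramef8. Pramef6 (−2.46 ± 0.98) and Pramef17 (−3.50 ± 1.39) were far lower and overlapped. Pramel5 held 2, 2, and 1 reads in the 3 control libraries, and Pramel4 held 0 reads in all 9 libraries. With Dppa4 siRNA the order was Pramef12 (3.88), Pramef8 (2.94), Pramel6 (−0.85), and Pramel7 (−1.30), whereas Gm12794 had moved from the upper group to the lowest. The rank of Gm12794 per kilobase depends on the annotation. Its annotated exons hold 1452 bases, of which 1449 are coding, whereas those of Pramef8 hold 4176, of which 1440 are coding. Without the length scale, the control mean of Gm12794 was 3.28, against 4.61 for Pramef8 and 4.85 for Pramef12. Shared stretches (47.0% for Gm12794) add to this uncertainty.

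**Figure D2:**
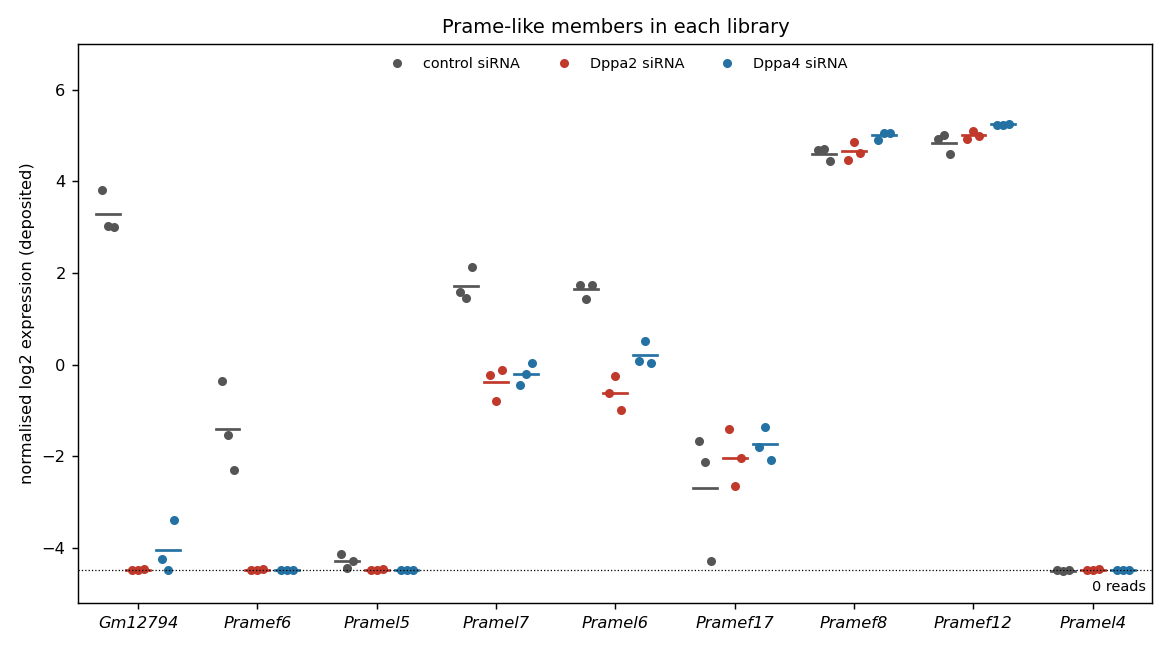
Normalized log2 expression (vertical axis) of the 9 members in each library, with 1 point per library, bars at the mean of 3 libraries, and a dotted line at the value of 0 reads. Gm12794 and Pramef6 reach or approach the line with either knockdown, Pramel5 lies on or near it in all libraries, Pramel7 and Pramel6 are lower but well above it, and Pramef8 and Pramef12 lie at or above their control values.

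Of the 9 members, 6 passed the filter on low values (log2 above −2 in at least 3 libraries) and entered limma, which fits linear models to the log2 values of all tested genes at an adjusted p (Benjamini-Hochberg) below 0.05. With Dppa2 siRNA, 3 of the 6 were lowered and 0 were raised, against 2.27% of the 14601 tested genes lowered and 1.16% raised. With Dppa4 siRNA, 3 of the 6 were likewise lowered and 0 raised, against 2.34% lowered and 1.10% raised. Gm12794, 1 of the 3 lowered members in each comparison, passed the filter only through its control libraries, where it is high, and therefore had to differ. The other 2, Pramel6 and Pramel7, passed it in all 9 libraries. The 6 had a median log2 difference of −1.02 after Dppa2 knockdown and −0.52 after Dppa4 knockdown, against 0.02 and 0.03 for all tested genes. Both comparisons use the same 3 control libraries. Between the knockdowns, 0 of the 6 differed in limma, against 0.0205% of tested genes (3 genes). Of all tested genes, 987 differed between the knockdowns in limma before adjustment at 0.05, and the 2 members among them were Pramel6 and Pramef8.

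Gm12794 (ENSMUSG00000070890, RefSeq Pramel19) lies at chr4:101940407-101943183 on the plus strand and has 3 exons with a coding sequence of 1449 bases. Its log2 values were 3.82, 3.03, and 3.0 in control libraries. All 3 Dppa2 siRNA libraries stood at the value of 0 reads (−4.49, −4.48, and −4.47), and the Dppa4 siRNA libraries held 1, 0, and 2 reads (−4.25, −4.49, and −3.40). The groups thus did not overlap, and expression dropped from among the highest in the family to at most 2 reads in a library. Whole reads were read off the ranked distinct values of each library, counting 1 read per step. With a floor of 3 reads per library, Gm12794 was at least 64.2-fold lower with Dppa2 siRNA. With Dppa4 siRNA the 3 reads amount to 0.293% of the control level (0.0605% to 0.857% at 95%, exact Poisson, counting error only). That control level stands for 1023 inferred reads over the 3 libraries, beyond the reliable range of 300 in a library. The share and its interval are therefore approximate. The fitted log2 differences were −7.76 with Dppa2 siRNA (limma, adjusted p = 2.97e-05) and −7.33 with Dppa4 siRNA (limma, adjusted p = 6.44e-05). These depend on the lowest values of the table, and the gene entered the test only through its control libraries. The p-values therefore test neither the bound nor the share and are not used as support. In bulk RNA, fewer 2-cell-like cells and less of this RNA per cell cannot be told apart.

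Pramef6 (RefSeq Pramel11) lies at chr4:143894237-143900380 on the minus strand, in the large cluster of the family, and showed the same pattern at a lower level. It held 26, 22, and 6 reads in control libraries A, B, and C and 0 reads in all 6 knockdown libraries. It did not pass the filter and was not tested, and against the floor it was at least 2.51-fold lower with Dppa2 siRNA and at least 3.46-fold lower with Dppa4 siRNA. Fitted without a filter, limma gave an adjusted p of 0.0193 in either comparison, but all 6 knockdown values are the value of 0 reads. With Dppa2 siRNA the same fit called rows raised that have 0 reads in all 9 libraries. This p is therefore not used as support. Pramel5, with 5 control reads in all and 0 in the knockdowns, was too low for any fold.

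Pramel7 (ENSMUSG00000025839) lies at chr2:87489087-87497093 on the minus strand, with 4 exons. Its log2 values were 1.58, 1.45, and 2.14 in control libraries, −0.22, −0.79, and −0.11 with Dppa2 siRNA, and −0.45, −0.20, and 0.04 with Dppa4 siRNA. Every knockdown library was below every control library, and each still held reads of the gene, 12 to 24 after Dppa2 knockdown, 22 to 27 after Dppa4 knockdown, and 97 to 154 in control. The log2 difference was −2.10 (95% interval −2.70 to −1.50; limma, adjusted p = 0.00288) with Dppa2 siRNA and −1.93 (−2.53 to −1.33; limma, adjusted p = 0.00538) with Dppa4 siRNA. These are decreases of 4.28-fold and 3.80-fold. The knockdowns differed from each other by 0.17 (−0.43 to 0.77; limma, adjusted p = 0.98).

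Pramel6 (ENSMUSG00000025838) lies 9.5 kb from Pramel7, at chr2:87506565-87510872 on the plus strand, with 6 exons. Its log2 values were 1.74, 1.44, and 1.75 in control libraries, −0.62, −0.24, and −0.99 with Dppa2 siRNA, and 0.08, 0.52, and 0.04 with Dppa4 siRNA. The 3 treatments did not overlap: control was highest, Dppa4 siRNA intermediate, and Dppa2 siRNA lowest. The log2 difference was −2.26 (95% interval −2.80 to −1.72; limma, adjusted p = 0.00107) with Dppa2 siRNA and −1.43 (−1.97 to −0.89; limma, adjusted p = 0.0134) with Dppa4 siRNA, or 4.79-fold and 2.70-fold lower. Dppa4 siRNA was above Dppa2 siRNA by 0.83 (0.29 to 1.37), but this did not pass the adjustment over all genes (limma, adjusted p = 0.635). The call with Dppa4 siRNA was lost without Dppa4 siRNA library A (adjusted p = 0.0714) and without library C (adjusted p = 0.0589).

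Beside limma, an intensity difference filter was applied to the tested genes, rewritten after the one the study names and not run in its software. It asks whether a gene stands apart from the 1% of tested genes nearest in expression. Its value is an unadjusted p from a normal distribution, so values near the threshold may differ from those of the study. With Dppa2 siRNA, Pramel7 (value of the filter 0.0543, threshold 0.05) and Pramel6 (0.0617) did not pass it, so that 1 member, Gm12794, met both criteria. With Dppa4 siRNA all 3 did. Of the 50 rows within 500 kb of Pramel7 on either side, 47 had 0 reads in all 9 libraries, and Pramel6 and Pramel7 were the 2 that could be tested.

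Pramef8 (ENSMUSG00000046862, RefSeq Pramel12) and Pramef12 (ENSMUSG00000028591, RefSeq Pramel13) are the first and last members in the large cluster on chromosome 4. Neither was lowered in either knockdown. Pramef8 had log2 values of 4.68, 4.70, and 4.44 in control libraries, 4.47, 4.86, and 4.63 with Dppa2 siRNA, and 4.91, 5.05, and 5.06 with Dppa4 siRNA. Pramef12, which is known from the testis for its part in spermatogenesis, had 4.92, 5.02, and 4.60 in control libraries, 4.93, 5.11, and 5.0 with Dppa2 siRNA, and 5.24, 5.23, and 5.26 with Dppa4 siRNA. For both genes the Dppa2 siRNA libraries overlapped control, and all Dppa4 siRNA libraries lay above it. The log2 differences with Dppa2 siRNA were 0.05 (95% interval −0.24 to 0.34) for Pramef8 and 0.17 (−0.10 to 0.44) for Pramef12, intervals that lie above that of Pramel7. With Dppa4 siRNA they were 0.40 (0.11 to 0.69; limma, adjusted p = 0.135) and 0.40 (0.12 to 0.67; limma, adjusted p = 0.123), neither past the threshold.

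Pramef17 (RefSeq Pramel14) and its copy Gm13128 (RefSeq Pramel30) were low throughout. Pramef17 held 11, 15, and 1 reads in control libraries, 10, 3, and 4 with Dppa2 siRNA, and 9, 12, and 5 with Dppa4 siRNA, and the groups overlapped. Its log2 difference was 0.66 (95% interval −0.86 to 2.18) after Dppa2 knockdown and 0.95 (−0.56 to 2.47) after Dppa4 knockdown. Gm13128 held 10, 20, and 0 reads in control libraries, 8, 27, and 5 with Dppa2 siRNA, and 18, 21, and 9 with Dppa4 siRNA, and did not pass the test either (limma, adjusted p = 0.389 and 0.275). The nearest relatives of Pramel7 in sequence therefore did not show its decrease, although the intervals are wide. Of the 7 members outside chromosome 2, then, Gm12794 and Pramef6 held at most 2 reads in any knockdown library, and Pramef8, Pramef12, and Pramef17 did not pass for any decrease. Pramel5 and Pramel4 had too few reads in control libraries to be placed with either.

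The other family rows were compared in the same way. Of the 33, 22 had 0 reads in all 9 libraries, among them Prame itself, Pramel3, and Oog1, Oog2, Oog3, and Oog4, the oogenesin genes of the oocyte. The share of 50-base stretches found in other genes was 88.4% for Oog1, 82.1% for Pramel3, 45.2% for Oog2, and 19.5% for Oog3. It was 1.6% for Prame and 0.5% for Oog4. In rows with a high share, 0 reads do not show that the gene is silent, because the counting may have dropped its reads. Of the 11 with reads, 9 were tested, and 7 of these were lowered in each knockdown and 0 raised. The 7 were B020004J07Rik, Gm12800, BC080695, Gm13083, Gm13078, Gm13109, and Gm13119. All 7 passed the filter on low values through their 3 control libraries, and in 6 of them no knockdown library was above it. Rows high in control only could enter and could then only be lowered, so the count describes these rows and is not set against the background.

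**Figure D3:**
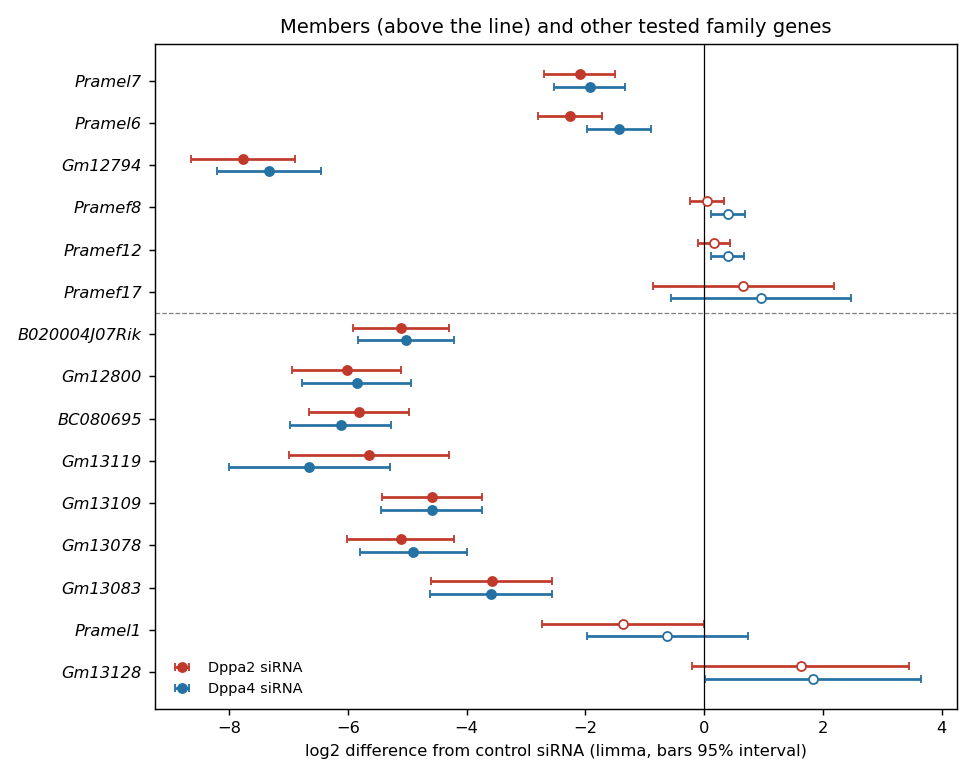
Log2 difference from control siRNA in limma (horizontal axis) with 95% intervals for the 6 tested members and the 9 other tested family genes, in red for Dppa2 siRNA and blue for Dppa4 siRNA, filled where the adjusted p is below 0.05. The copies on the left lie near −3.58 or below, Pramel7 and Pramel6 lie at −1.43 to −2.26, and Pramef8 and Pramef12 lie at 0.05 to 0.40. Genes at 0 reads in a knockdown have a difference that is set by the lowest value of the table.

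Gm13119 (RefSeq Pramel31) was the highest of these copies in control libraries, at 2.71, 2.59, and 2.19, and held 0, 2, and 5 reads with Dppa2 siRNA and 1 read in each library with Dppa4 siRNA. Relative to control this is 1.52% (0.611% to 3.13%, exact Poisson) and 0.537% (0.111% to 1.57%). BC080695 (RefSeq Pramel20) held 109, 154, and 80 reads in control libraries, 2, 0, and 0 with Dppa2 siRNA, and 0 in all libraries with Dppa4 siRNA, at least 28.2-fold lower in the latter. Gm12800 (RefSeq Pramel18) held 153, 136, and 56 reads in control libraries and 1 read over all 6 knockdown libraries. It shares 46.1% of its 50-base stretches with other genes, mainly Gm12794, and reads of the pair may have been divided between them. The shares were 63.3% for Gm13109, 55.7% for BC080695, and 38.4% for Gm13119. They were lower for Gm13083 (25.5%), Gm13078 (14.3%), and B020004J07Rik (13.5%). The reads of these copies are therefore not fully separate observations.

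Gm13109, at the place of Pramef25, held 36, 63, and 27 reads in control libraries and 0 in all 6 knockdown libraries, at least 7.08-fold lower with Dppa2 siRNA and at least 9.78-fold lower with Dppa4 siRNA. Gm13078, the close copy of Pramef6, held 65, 82, and 34 reads in control libraries, 0 with Dppa2 siRNA, and 2, 0, and 0 with Dppa4 siRNA. Gm13083, of the same set, held 22, 23, and 17 reads in control libraries and 0 in the knockdowns. B020004J07Rik (RefSeq Pramel17), the more distant relative of Gm12794, held 54, 86, and 38 reads in control libraries, 0 with Dppa2 siRNA, and 0, 1, and 0 with Dppa4 siRNA. Gm13101 (38, 67, and 4 control reads) and C87414 (2, 11, and 3) were not tested and had 0 reads in all knockdown libraries. Pramel1, another single gene of the family, had log2 values of 1.75, 0.87, and −0.15 in control libraries and did not pass the test (limma, adjusted p = 0.316 and 0.686). Gm13128, Gm13101, C87414, and Pramel1 were named after their values had been seen.

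The order along chromosome 4 was examined next. Counted from its first to its last member, Pramef8 to Pramef12, the cluster spans 996 kb and holds 28 rows, 23 of them of the family. Pramel1, a family row that is not a member, lies just outside this stretch, beyond Pramef8. Of the 28, 14 had 0 reads in all 9 libraries and 10 were tested. In each knockdown 5 of the 10 were lowered and 0 raised, and these 5 are among the rows that entered the test through control libraries. They lay between Pramef8 and Pramef12, as did the unlowered Pramef17 and Gm13128 and several rows without reads. Among family rows, Gm13128 stood next to the lowered Gm13119. A second group, B020004J07Rik, Gm12800, and Gm12794, lies within 108 kb elsewhere on the chromosome, and all 3 were lowered in each knockdown. These 3 also entered the test only through control libraries. The region holds 4 rows, all tested, and the row outside the family was not called in either knockdown.

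**Figure D4:**
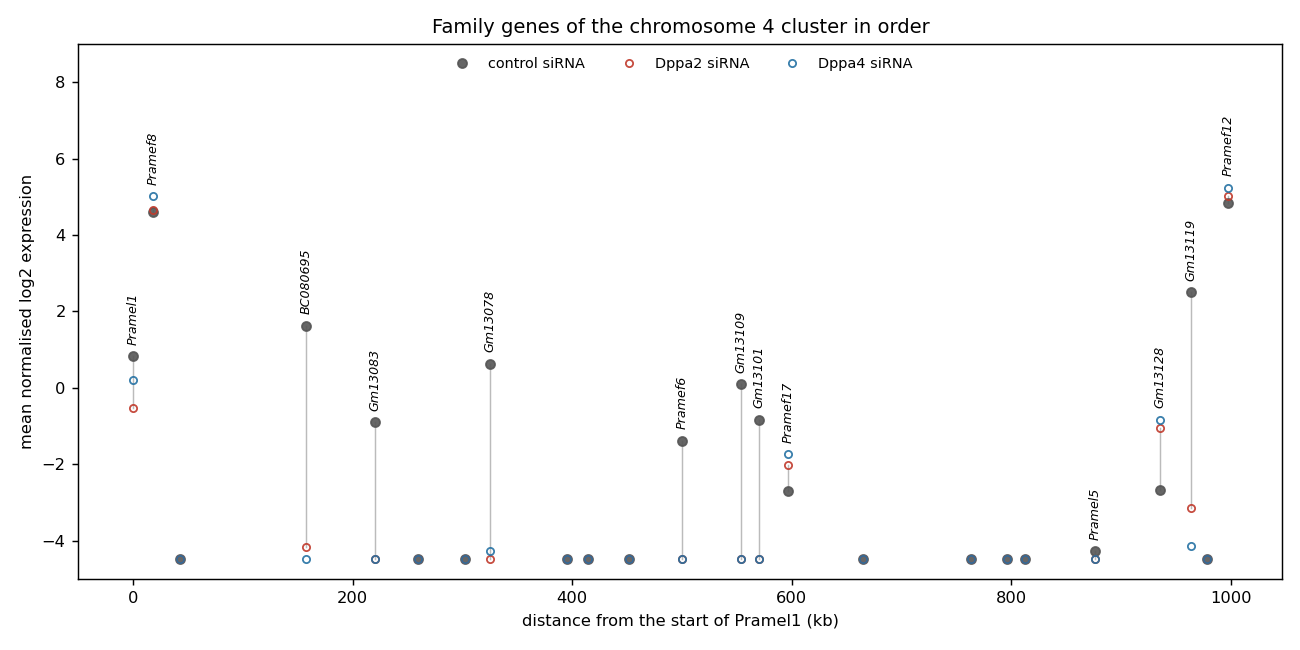
Mean normalized log2 expression (vertical axis) of each family gene of the large chromosome 4 cluster under the 3 siRNAs, by distance from the start of Pramel1 in kb, with names for genes that have reads. Pramef8 and Pramef12 near the ends keep their level, Pramef17 and Gm13128 do not fall, and the named genes between fall to or near the value of 0 reads, except Pramel1 at the left end.

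The sequence upstream of the genes was described for 16 family genes with a start in RefSeq (GRCm38.p6), over 250 bases before the annotated start. The windows of Pramef17 and Gm13128 were identical at 97.2% of aligned bases, those of Gm13078 and Pramef6 at 85.4%, and those of Pramel7 and Pramef17 at 78.7%, against a median of 46.5% over all 120 pairs. Those of Pramel6 and Pramel7 were identical at 42.9%, near the lowest of all pairs (41.2%). In 5 of the 16, among them the window of Pramel7, the bases before the RefSeq start overlap an exon of the GENCODE annotation on the same strand. The identities given for Pramel7 therefore rest in part on transcript sequence. Annotated starts of Gm12794 and several other copies coincide with the first coding base, so their true start may lie elsewhere.

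A window is printed for 1 gene of each pattern, with CG pairs in capitals: Gm12794, which fell to 0 or 3 reads, Pramel6, which fell in part, and Pramef12, which was not lowered.
Gm12794: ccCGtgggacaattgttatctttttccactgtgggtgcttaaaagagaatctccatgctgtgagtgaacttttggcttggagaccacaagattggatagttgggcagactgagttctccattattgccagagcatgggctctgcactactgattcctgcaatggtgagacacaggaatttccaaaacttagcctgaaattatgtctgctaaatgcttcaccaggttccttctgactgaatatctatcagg
Pramel6: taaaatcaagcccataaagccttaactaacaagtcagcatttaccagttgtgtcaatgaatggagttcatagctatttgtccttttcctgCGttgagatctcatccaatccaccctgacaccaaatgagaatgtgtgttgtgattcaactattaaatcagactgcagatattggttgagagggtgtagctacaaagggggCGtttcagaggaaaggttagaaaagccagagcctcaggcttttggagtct
Pramef12: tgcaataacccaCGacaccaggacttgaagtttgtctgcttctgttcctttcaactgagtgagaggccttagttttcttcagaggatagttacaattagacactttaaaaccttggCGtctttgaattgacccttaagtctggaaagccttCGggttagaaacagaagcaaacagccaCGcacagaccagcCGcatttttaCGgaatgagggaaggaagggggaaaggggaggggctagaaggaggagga

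These windows lie at chr4:101940157-101940406 (plus strand), chr2:87506315-87506564 (plus strand), and chr4:144408465-144408714 (minus strand). The window of Gm12794 held 1 CG pair, that of Pramel6 held 2, and that of Pramef12 held 6, and the median over 32851 RefSeq windows of this length was 6. Of the 16 family windows only that of Pramel1 (18 CG pairs) lay above this median. The motif TATAAA, read on both strands, was found in the windows of BC080695 and Gm13119 and in 12.4% of all windows. The motif TTCNNNGAA, the core of a STAT site and its own reverse complement, was found in none of the 16 and in 7.02% of all windows. These are descriptions of letters in 1 window per gene.

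Genes around Pramel6 and Pramel7 in the naive state were examined from lists. Of 15 naive pluripotency genes, 15 were tested and 0 were called in either knockdown, with a median log2 difference of 0.04 after Dppa2 knockdown and 0.06 after Dppa4 knockdown. The first of the list, Nanog, Klf4, and Tfcp2l1, are transcription factors of this state. With Dppa2 and Dppa4 siRNA, their log2 differences were −0.22 and −0.28 for Nanog, 0.04 and 0.23 for Klf4, and 0.10 and −0.22 for Tfcp2l1. Of 12 genes of the LIF–STAT3 pathway, 0 were called with Dppa2 siRNA and 1 with Dppa4 siRNA, the kinase Jak1 (log2 difference −0.61; limma, adjusted p = 0.0422). The log2 differences were −0.04 and −0.01 for Stat3, the transcription factor that LIF activates, 0.17 and −0.18 for Lifr, the LIF receptor, and −0.07 and −0.08 for Il6st, its signaling partner. Of 13 genes of UHRF1 and DNA methylation found in the table, 0 were called in either knockdown. The log2 differences were −0.02 and 0.09 for Uhrf1, −0.01 and 0.01 for Cul2, and −0.05 and 0.03 for Dnmt1. These are mRNA values, and the protein of UHRF1, on which Pramel7 is known to act, was not measured here.

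**Figure D5:**
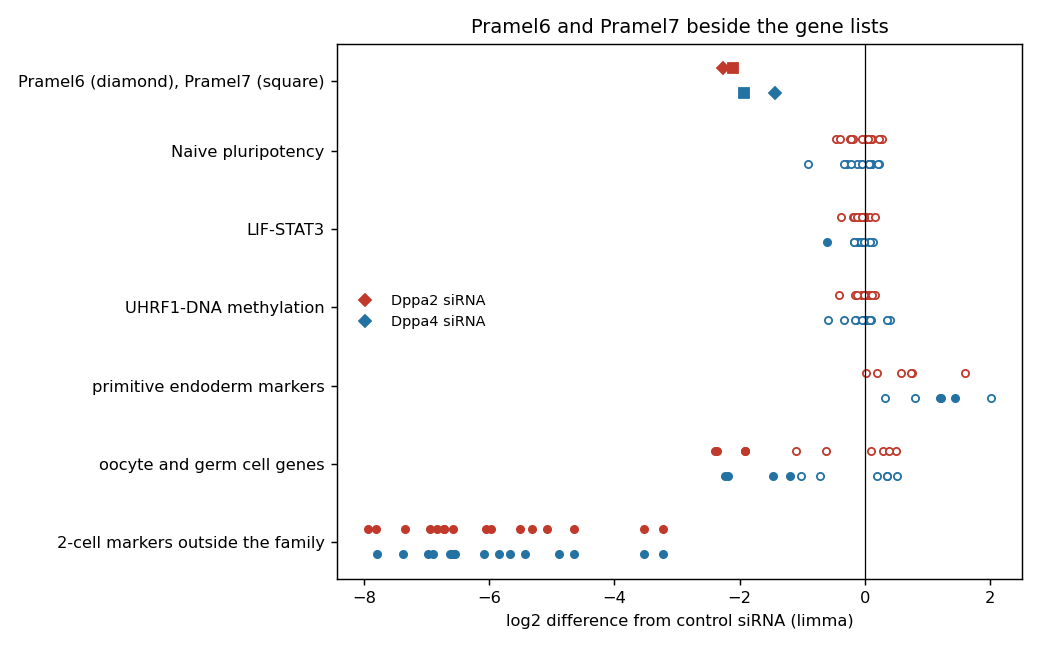
Log2 difference from control siRNA in limma (horizontal axis) of each tested gene of 6 lists, below Pramel6 (diamonds) and Pramel7 (squares), with red for Dppa2 siRNA, blue for Dppa4 siRNA, and filled points where the adjusted p is below 0.05. Naive, LIF–STAT3, and UHRF1 genes lie around 0, and Pramel6 and Pramel7 lie between them and the 2-cell markers. Markers at 0 reads in a knockdown have a difference that is set by the lowest value of the table. Of the germ cell genes, 4 are filled in each knockdown, and 4 of the open ones lie above 0.

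Of 22 2-cell markers outside the family, 16 were in the table and tested, and all 16 were lowered in each knockdown, with log2 differences of −3.22 to −7.93 after Dppa2 knockdown and −3.23 to −7.79 after Dppa4 knockdown. All 16 had mean log2 values below −2 in both knockdowns, so that most entered the test only through control libraries, where they are high. After Dppa2 knockdown, Zscan4d, a gene of telomere maintenance and the 2-cell state, was at −6.94, Gm8300 at −7.34, Gm2022 at −7.80, and Gm5662 at −7.93. Of 15 oocyte and germ cell genes, 10 were tested and 4 were lowered in each knockdown. These were Dazl, an RNA-binding protein of germ cells (−2.36 and −2.19), Sohlh2, a transcription factor of gonadal germ cells (−2.39 and −2.23), Ddx4, the germ cell helicase (−1.91 and −1.19), and Mael, of the piRNA pathway (−1.91 and −1.46). The other 6 were not called, and 4 of them, Ooep, Tle6, Gdf9, and Zp3, had differences above 0 in both comparisons (0.50, 0.38, 0.29, and 0.10 after Dppa2 knockdown). Over the 10, the differences ranged from −2.39 to 0.50 after Dppa2 knockdown and from −2.23 to 0.51 after Dppa4 knockdown, with a median of −0.86 in each. The estimates of Pramel6 and Pramel7 were smaller in size than those of every 2-cell marker tested. Markers at 0 reads in a knockdown, however, have estimates set by the lowest value of the table. Tcstv1 and Tdpoz3, with control means of −1.26 and −0.96, were such markers with Dppa2 siRNA. Against the floor of 3 reads per library, their decrease there cannot be ranked with those of Pramel6 and Pramel7.

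Markers of primitive endoderm, the extraembryonic lineage beside the naive epiblast, are given beside the decrease of Pramel6 and Pramel7. All 6 were above control in each knockdown by their estimates, and with Dppa4 siRNA 2 of 6 were raised, Gata6 (1.44; limma, adjusted p = 0.0132) and Sox17 (1.20; limma, adjusted p = 0.0348). Their summed linear level was 9.91 to 13.9 in control libraries, 13.3 to 17.1 after Dppa2 knockdown, and 19.1 to 21.3 with Dppa4 siRNA, and none of the 6 was at 0 reads in any treatment. That of the 8 ESC markers was 3300 to 3680, 3640 to 3830, and 3520 to 3780. The part of such cells in the change of Pramel6 and Pramel7 was not tested. Of trophoblast and primed epiblast markers 0 were called, and of 4 tested fibroblast markers Vim was lowered with Dppa2 siRNA (limma, adjusted p = 0.0429).

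The genes outside the family whose values over the 9 libraries were most like those of each member are given as a description, because the libraries fall into control and knockdown and any gene that falls in both resembles any other. For Gm12794 these included Rdh1 (Pearson r = 0.996), C86695 (0.996), AW822073 (0.995), and AC164627.1 (0.995). For Pramel6 they were Cd34 (0.982), Ldoc1 (0.979), Plekhb2 (0.978), Nefh (0.976), and Mov10l1 (0.972). For Pramel7 they were Mfsd1 (0.978), Gm8300 (0.978), Arg2 (0.978), Cwc22 (0.977), and AU022751 (0.976). Among the members, r was 0.960 between Pramel7 and Gm12794, 0.911 between Pramel6 and Gm12794, and 0.872 between Pramel6 and Pramel7.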

How the data were processed

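RNA-seq libraries of polyadenylated RNA from E14 ESCs treated with control, Dppa2, or Dppa4 siRNA (3 each) were analyzed. According to the methods and labels, the authors trimmed the reads with Trim Galore (0.4.5 per the labels), aligned with HISAT2 2.0.5 against GRCm38, and counted on mRNA probes by strand in SeqMonk. The authors then matched the distributions of the libraries and deposited log2 values for 25965 genes. From these, genes with log2 above −2 in at least 3 libraries (14601) were tested with limma 3.58.1 in R 4.3.3, using all 9 libraries, 1 term for treatment, and the trend option. The fit was tested on simulated data. Groups follow the sample titles.

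Reads were inferred from the order of distinct values in a library, reliably up to 300 reads, and counting intervals are exact Poisson intervals at 95%. Matching of distributions compresses the lowest steps, so fitted differences of genes near 0 reads depend on it. Family genes were found in RefSeq by name, or by place where a row covered at least 80% of the RefSeq gene and the overlap at least 20% of the row. All 42 rows were matched to the GENCODE vM21 annotation for exon length and coding sequence. Coding and upstream sequences were aligned globally with Biopython 1.88. Upstream sequences are from RefSeq, and Gm12800 and Pramef8 have none printed.

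The members, lists, and tests were chosen with earlier results of these data known. Named were all members, family genes called in either knockdown, the 5 genes most correlated with Gm12794, Pramel6, and Pramel7 (1 is not reported here), up to 4 called genes per list, and the first 3 genes of the naive, LIF–STAT3, and UHRF1 lists. Alternatives were another filter, no filter, a pseudocount of 0.5 on the linear scale, median centering, no trend, only the groups compared, a replicate block, the intensity difference filter, and leaving out each library, with the tested genes kept.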

Additional observations from a re-analysis of the deposited data

How the results depend on the processing

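The direction and side of the threshold of Gm12794 and Pramel7 against control were kept in all 16 alternative fits of limma for each knockdown. Gm12794 entered the main test only through its control libraries and held at most 2 reads in a knockdown library. Its kept calls and their p-values are therefore no separate support. The intensity difference filter, counted apart, was not passed by Pramel7 (0.0543) or Pramel6 (0.0617) with Dppa2 siRNA. For Gm12794 the adjusted p of limma ranged from 4.16e-06 to 0.00114 after Dppa2 knockdown and from 4.92e-06 to 0.00193 after Dppa4 knockdown, and for Pramel7 from 0.0018 to 0.0189 and from 0.00315 to 0.0315. Pramel6 was called in 16 of 16 with Dppa2 siRNA and in 13 of 16 with Dppa4 siRNA, with adjusted p from 0.00564 to 0.0714 in the latter. The replicate letters did not pair the libraries, since deviations of same-letter libraries correlated between −0.58 and 0.37, and with the replicate block Pramel6 had a difference of −1.43 and an adjusted p of 0.0528 with Dppa4 siRNA, so that the count of members lowered was 2. The block changed no other call of a member.

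The number of members lowered with Dppa2 siRNA was 3, and 1 also passed the intensity difference filter. Leaving out a library gave 3 lowered members after Dppa2 knockdown and 2 to 3 after Dppa4 knockdown. Without the filter on low values, 1 member was called raised with Dppa2 siRNA, Pramel4, together with 22 other rows of the family. All have 0 reads in all 9 libraries, and the call comes from the value of 0 reads, which was −4.49 to −4.47 in Dppa2 siRNA libraries and −4.5 to −4.49 in control libraries. In the same fit Pramef6 had a difference of −3.09 with Dppa2 siRNA and −3.10 with Dppa4 siRNA. The sign of uncalled differences turned in 5 cases. With Dppa2 siRNA, Pramef8 was at −0.04 without control library C and at −0.05 without Dppa2 siRNA library B (range over left-out libraries −0.05 to 0.14), and Pramef17 at −0.13 without control library C (−0.13 to 1.17). Between the knockdowns, without Dppa2 siRNA library B, Pramel7 was at −0.04 (−0.04 to 0.30) and Pramef17 at −0.01 (−0.01 to 0.61). Pramef6, Pramef17, Pramel5, and Pramel4 had under 30 reads in every library, and 26.7% to 92.8% of their 50-base stretches are shared with other genes. Depth and reads lost in counting cannot be told apart for them.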
